A study of Apis mellifera with 9 samples.

Results

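H3K27me3, the trimethylation of lysine 27 on histone H3, was compared between ovaries of queen-less and queen-right honeybee (Apis mellifera) workers, as lists of broad peaks from chromatin immunoprecipitation with sequencing (ChIP-seq). The members were chosen by their labels alone: the lists of queen-less worker 1, queen-less worker 2, queen-right worker 1 and queen-right worker 2, which are 4 of the 9 samples of the study. Of the other 5 samples, the lists of queens 1 and 2 served as a readout, and 3 inputs were not analysed here. The queen lists took no part in defining the regions or bases that differed between workers. They entered only the scaffold spans, taken as the farthest peak end over the 6 ChIP lists. Queen-less workers had lived 2 to 4 weeks without a queen and had ovaries of score 3, and queen-right workers came from colonies with a queen and had ovaries of score 0. All were females from hives in Dunedin, New Zealand. Queen-less workers were kept in nucleus boxes and queen-right workers came from standard hives. Chromatin came from whole dissected ovaries with their mix of cell types, and repeat immunoprecipitations of a sample were pooled, so fewer cells with the mark and less mark per cell cannot be told apart. Nor can the loss of the queen, the activation of the ovary and the kind of box.

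H3K27me3 is set by Polycomb repressive complex 2 and is read by Polycomb proteins at genes kept silent through cell divisions. It often lies in broad domains of many nucleosomes rather than at single sites. In a honeybee colony the pheromone of the queen keeps worker ovaries small and inactive, and workers that lose their queen can activate their ovaries and lay unfertilised eggs. The activated worker ovary takes on structures, such as growing oocytes with nurse cells, that the queen ovary also has.

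The 4 lists were of like length but covered unlike amounts of the genome. The queen-less lists held 48654 and 50576 peaks, against 49448 and 50922 peaks in the queen-right lists. Peaks covered 59.2 and 78.0 Mb in queen-less workers, against 64.8 and 48.8 Mb in queen-right workers. The group ranges overlapped, because queen-right worker 1 lay above queen-less worker 1. Queen-less workers averaged 68.6 ± 13.3 Mb, against 56.8 ± 11.3 Mb for queen-right workers (SD, n = 2 in each group), a difference of 11.8 Mb that was smaller than the pooled SD of 12.3 Mb (exact two-sided permutation test, p = 0.667). With 2 lists against 2 the smallest p that this test can give is 0.333. No comparison of single values in these lists could thus pass 0.05. The p-value only ranks the labelled difference among the 3 splits of the 4 lists.

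Queen-less worker 2 stood apart in the strength of its calls as well as in their extent. The median peak score, a whole number that is higher for a stronger call and was 10 at the lowest in every list, was 24 and 73 in queen-less workers, against 34 and 27 in queen-right workers. The share of peaks with a score of at least 20 was 69.5% and 96.9% in queen-less workers, against 84.7% and 77.4% in queen-right workers. The part that this unequal strength plays in the results was not tested beyond giving them without that list and at equal covered bases, where only the top-scoring peaks of each list were kept, up to the 48.8 Mb of the smallest list. Read depth behind the lists is unknown, since they hold no counts, and no counting intervals are given.

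Broad peaks carried the difference in covered bases. Peaks of 10 kb or more covered 6.88 and 17.7 Mb in queen-less workers, against 7.59 and 2.27 Mb in queen-right workers. The difference between the means was 7.38 Mb, beside a pooled SD of 6.04 Mb (exact permutation test, p = 0.667), and it made up 62.8% of the whole difference. There were 431 and 924 such peaks in queen-less workers, against 483 and 154 in queen-right workers, so the order of the lists was the same as for the covered bases, with queen-right worker 1 between the queen-less lists. Peaks of 3 to under 10 kb covered 17.7 and 24.6 Mb in queen-less workers, against 20.7 and 12.5 Mb in queen-right workers, and their difference of 4.58 Mb made up 38.9% of the whole. Without queen-less worker 2 the difference in peaks of 10 kb or more was 1.95 Mb and that in all covered bases 2.35 Mb.

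The narrower classes differed little. Peaks under 500 bases covered 6.17 and 6.57 Mb in queen-less workers, against 6.07 and 7.34 Mb in queen-right workers. Peaks of 500 to under 1000 bases covered 7.96 and 7.03 Mb in queen-less workers, against 7.84 and 8.01 Mb in queen-right workers. In both classes the mean was lower in queen-less workers by less than the pooled SD. Peaks of 1 to under 3 kb covered 20.4 and 22.0 Mb in queen-less workers, against 22.6 and 18.8 Mb in queen-right workers, which overlapped. As a share of the covered bases they held 34.6% and 28.2% in queen-less workers, against 34.8% and 38.4% in queen-right workers. The shares did not overlap (exact permutation test, p = 0.333, the smallest possible), though queen-less worker 1 and queen-right worker 1 were nearly level. The longest peak spanned 97917 and 183410 bases in queen-less workers, against 95923 and 56803 bases in queen-right workers. These lengths did not overlap either (exact permutation test, p = 0.333), though queen-less worker 1 and queen-right worker 1 were again nearly level.

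**Figure D1:**
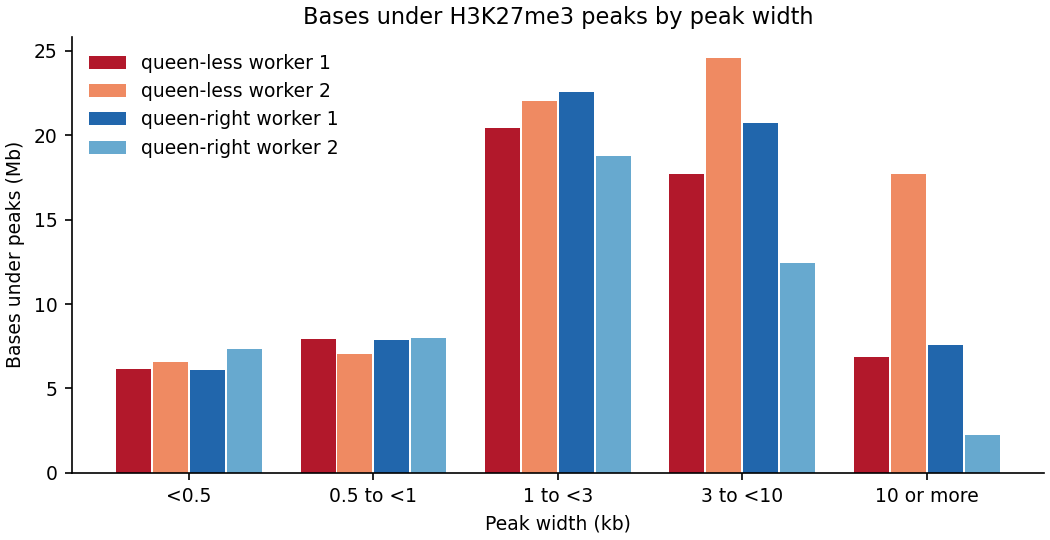
Bases under H3K27me3 peaks (Mb, vertical axis) by class of peak width (kb, horizontal axis), with 1 bar for each of the 4 worker lists and no error bars. In the class of 10 kb or more, the bars of the queen-less workers stand at 6.88 and 17.7 Mb and those of the queen-right workers at 7.59 and 2.27 Mb.

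To ask where the mark differed, the peaks of the 4 lists were merged into 53639 regions that held 90.5 Mb under at least 1 list. A region was called in a list if at least 1 base of a peak lay in it. All 4 lists called 26918 of the regions (50.2%), and 36.2 Mb (40.0% of the bases) lay under peaks of all 4. The same 4 lists can be paired in 2 other ways that cross the labels, and these crossed comparisons are set beside the main counts: same-numbered lists together (queen-less 1 with queen-right 1, and queen-less 2 with queen-right 2), and unlike-numbered lists together (queen-less 2 with queen-right 1, and queen-less 1 with queen-right 2). The last of these sets the pair with the higher covered bases, 71.4 Mb on average, against 54.0 Mb. The labelled pairs averaged 68.6 and 56.8 Mb, and the same-numbered pairs 62.0 and 63.4 Mb.

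Regions with peaks of one group's lists alone were found mostly in queen-less workers. The queen-less workers alone called 2932 regions (5.47% of all), and the queen-right workers alone called 568 (1.06%). The crossed pairs gave 309 (0.576%) for the lists numbered 1 and 1112 (2.07%) for those numbered 2, then 2584 (4.82%) for queen-less 2 with queen-right 1 and 153 (0.285%) for queen-less 1 with queen-right 2. The queen-less count was thus close to that of the crossed pair of the 2 lists with the most covered bases. The direction turned at equal covered bases, where the queen-less workers alone called 234 regions and the queen-right workers alone 4140, and so did that of the unlike-numbered pairs, with 78 for queen-less 2 with queen-right 1 and 4034 for queen-less 1 with queen-right 2. At that setting queen-right worker 2 keeps all of its peaks, down to a score of 10, and queen-less worker 2 only those with a score of at least 91. Without queen-less worker 2 the labelled counts lay close, at 6156 and 5363, but under unlike conditions. The queen-less count then needs a peak in queen-less worker 1 alone, and the queen-right count needs peaks in both queen-right lists. The latter also takes in regions that queen-less worker 2 called. In the full lists 4342 regions were called in queen-less worker 2 and both queen-right lists but not in queen-less worker 1. With a minimum score of 20 the counts were 2497 and 267, while queen-less 2 with queen-right 1 called 4277. Regions were merged anew at each of these settings, so their totals are not that of the full lists and no shares are given.

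The regions of queen-less workers alone were short, as were those of the other pairs. Their median width was 505 bases, against 440.5 for queen-right workers alone, 321 to 583 for the crossed pairs and 723 for all regions. Under 500 bases there were 1460 (7.26% of all regions of that width), and at 500 to under 1000 bases 899 (7.44%). There were 544 of 1 to under 3 kb (3.75%), 27 of 3 to under 10 kb (0.466%) and 2 of 10 kb or more (0.176%). Under 500 bases, queen-less 2 with queen-right 1 had 1678 (8.34%). The median distance to the nearest queen-right peak was 1596 bases over the 2865 with such a peak on their scaffold. From regions of queen-right workers alone to the nearest queen-less peak it was 1318 bases, and for the crossed pairs 1106.5 to 3076.5 bases. In 45.4% of the regions of queen-less workers alone both queen-less lists had a score of at least 20. The like share was 37.0% for queen-right workers alone and 12.9% to 61.7% for the crossed pairs. The widest region of queen-less workers alone lay at NW_003378187.1:18673-31969 (13297 bases, with scaffolds named as in the lists). Of its bases, 97.0% were under queen-less worker 1 and 26.0% under queen-less worker 2. At NW_003378174.1:344555-355932, peaks of queen-less workers 1 and 2 covered 69.5% and 92.7% of 11378 bases, and no queen-right or queen peak touched it. At NW_003378437.1:571-6630, peaks covered 100% and 83.7% of 6060 bases in queen-less workers 1 and 2, no base in either queen-right worker, and 95.2% and 78.3% in queens 1 and 2. The widest region of queen-right workers alone, NW_003377964.1:23858-26428, was 2571 bases long, with 100% of it under queen-right worker 1 and 22.3% under queen-right worker 2.

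Counted in bases, most of the differing mark lay inside or at the edge of regions that the other group also had. Bases under both queen-less lists and neither queen-right list came to 6.99 Mb, and those under both queen-right lists and neither queen-less list to 1.04 Mb. Of the queen-less bases, 1.11 Mb (15.9%) were in new regions, 3.31 Mb (47.3%) filled gaps between queen-right peaks of one merged region, and 2.57 Mb (36.8%) extended a region past the outermost queen-right base on one side. Of the queen-right bases, 0.170 Mb (16.4%) were in new regions, 0.320 Mb (30.9%) filled gaps and 0.546 Mb (52.7%) were extensions. Filling was the larger place in queen-less workers under this rule. The order turned where filled stretches had to touch queen-right peaks on both sides, with 2.40 Mb of filling and 3.49 Mb of extension, and without queen-less worker 2, with 3.15 and 4.58 Mb. The crossed pair of queen-less 2 with queen-right 1 had 6.28 Mb, of which 0.686 Mb were new regions, 3.04 Mb filling and 2.55 Mb extensions, a like total with the same order of places. At equal covered bases the totals were 3.43 Mb for queen-less and 3.69 Mb for queen-right workers, with new regions at 0.0899 Mb and 2.20 Mb and filling at 2.23 Mb and 0.299 Mb.

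Many of the differing stretches were short. The full lists of the labelled and crossed comparisons parted more when long stretches alone were read. Of 18048 extensions in queen-less workers the median length was 43 bases, and of 8171 filled stretches it was 244 bases. Stretches of at least 1 kb numbered 1060 in queen-less workers (1.56 Mb), against 49 in queen-right workers (0.0571 Mb). Of the 1060, 556 filled gaps, 350 were extensions and 154 were in new regions. The crossed pairs had 422 (0.534 Mb) for queen-less 2 with queen-right 1, and 7, 19 and 35 for queen-less 1 with queen-right 2, the lists numbered 1 and the lists numbered 2. At equal covered bases the labelled counts were 660 for queen-less and 767 for queen-right workers, in the opposite order, beside 281 for queen-less 2 with queen-right 1 and 562 for queen-less 1 with queen-right 2. Without queen-less worker 2 the labelled counts were 1909 and 813, under the unlike conditions given above. With a minimum score of 20 the queen-less count of 1371 was close to the 1287 of queen-less 2 with queen-right 1. So were the counts with peaks closer than 1 kb joined, at 2988 and 2797. The limit of 1 kb was chosen after the lengths had been seen.

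**Figure D2:**
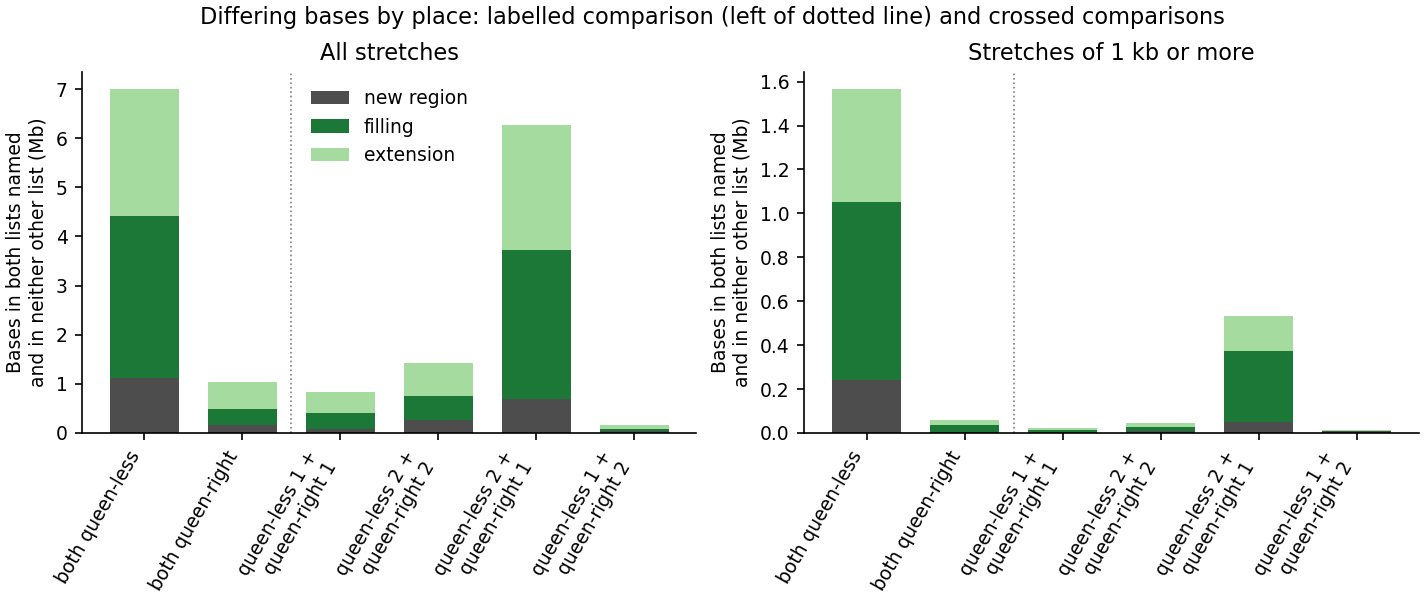
Bases under both lists named on the horizontal axis and under neither other list (Mb, vertical axis), stacked by place as new region, filling of a gap or extension, for all stretches (left) and for stretches of 1 kb or more (right), with the crossed pairs right of the dotted line. Queen-less workers reach 6.99 Mb over all stretches, near the 6.28 Mb of queen-less 2 with queen-right 1, and 1.56 Mb against 0.534 Mb over long stretches.

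The longest filled stretch, NW_003378039.1:1486997-1495390, ran over 8394 bases inside a region of 57878 bases that all 4 lists called. Queen-less workers 1 and 2 had 5 peaks and 1 peak there, over 93.6% and 100% of the region, against 9 and 16 peaks over 41.2% and 51.0% of it in queen-right workers 1 and 2. Both queens had 5 peaks there, over 94.1% and 92.2% of it. On the left of the stretch only queen-right worker 2, of the queen-right lists, had peaks. The ends of the region are those of the peak of queen-less worker 2, and the site was picked for its long gap in the queen-right lists. The full cover in queen-less worker 2 and part of the low queen-right cover thus follow from the choice. Within these ends the queen-right lists held in pieces a domain that was near continuous in the queen-less lists and in the queens. The next longest filled stretches were 4497 bases at NW_003378093.1:182141-186637, under queen peaks in full, and 4410 bases at NW_003378128.1:493252-497661, of which 85.6% and 99.0% lay under queens 1 and 2. The longest extension of the queen-less workers, at NW_003378096.1:696932-701647, had 4716 bases, with 99.0% and 98.3% under queens 1 and 2.

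Stretches of queen-right workers were shorter and mostly bare in queens. The longest filled one, NW_003377906.1:142628-144203, had 1576 bases, of which 49.8% lay under queen 1 and none under queen 2. The next, NW_003377938.1:927630-929164, had 1535 bases and no queen peak. The longest extension, NW_003378028.1:126875-128405, had 1531 bases and no queen peak.

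**Figure D3:**
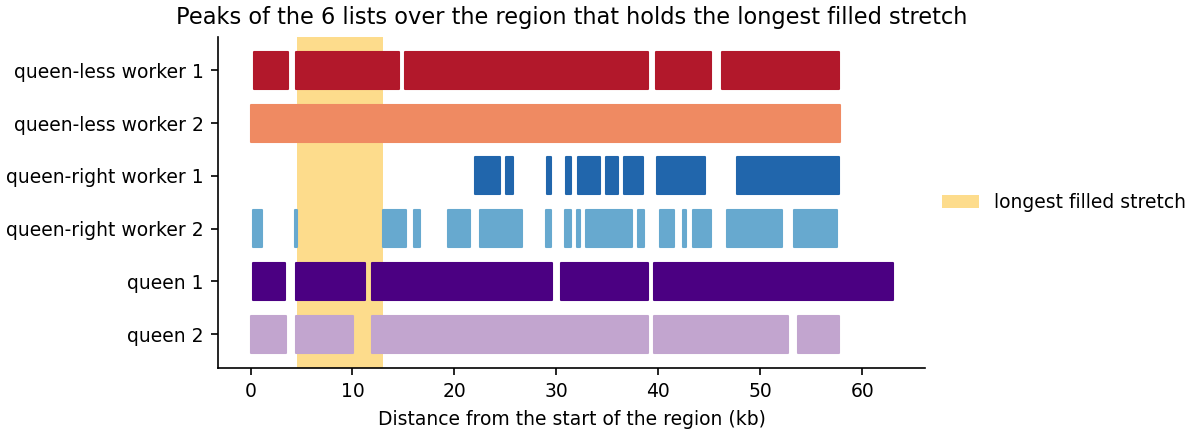
Peaks of the 6 ChIP lists (1 row each, bars to scale) over the region with the longest filled stretch, by distance from its start (kb, horizontal axis), with that stretch shaded. Queen-less worker 2 has 1 peak over the whole region and queen-less worker 1 has 5, while queen-right workers 1 and 2 have 9 and 16 peaks over 41.2% and 51.0% of it.

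Within the 26918 shared regions, which span 74.9 Mb, peaks covered 71.4% and 90.8% of the bases in queen-less workers, against 77.9% and 60.4% in queen-right workers. The difference of 12.0 percentage points was within the pooled SD of 13.1 (exact permutation test, p = 0.667). It was 2.10 points without queen-less worker 2 and 3.39 without queen-right worker 2, and 21.4 without queen-less worker 1 and 22.0 without queen-right worker 1. A larger share was covered in both queen-less lists than in either queen-right list in 7411 of these regions (27.5%), and the reverse held in 1515 (5.63%). The crossed pairs gave 1194 (4.44%) for the lists numbered 1 and 3177 (11.8%) for those numbered 2, then 13266 (49.3%) for queen-less 2 with queen-right 1 and 252 (0.936%) for queen-less 1 with queen-right 2. The labelled split of shared regions was thus smaller than that between the lists with more and fewer covered bases.

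The ends of shared regions followed the same order. Of 53836 ends, 13806 (25.6%) lay farther out in both queen-less lists, by a median of 39 bases, and 3959 (7.35%) lay farther out in both queen-right lists, by a median of 21 bases. The lists numbered 1 lay farther out at 2586 ends (4.80%) and those numbered 2 at 9308 (17.3%). Queen-less 2 with queen-right 1 lay farther out at 22590 (42.0%), and queen-less 1 with queen-right 2 at 740 (1.37%).

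Only in the widest shared regions did the share covered separate the groups. Region width is that of the merged peaks of the 4 lists, so broad peaks of a single list could bring a region into this class. Queen-less worker 2 had the most peaks of 10 kb or more (924), so its high share there follows in part from how the regions were defined. In the 1131 regions of 10 kb or more, 83.0% and 97.1% of the bases were under peaks in queen-less workers, against 82.8% and 69.0% in queen-right workers. The difference of 14.2 points exceeded the pooled SD of 9.86 (exact permutation test, p = 0.333, the smallest possible), though queen-less worker 1 and queen-right worker 1 were nearly level. These regions were broken into 3.96 and 1.53 peaks on average in queen-less workers, against 3.72 and 5.92 in queen-right workers. They were held as 1 peak in 7.96% and 64.3% of cases in queen-less workers, against 14.7% and 1.59% in queen-right workers, so the number of pieces did overlap between the groups.

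**Figure D4:**
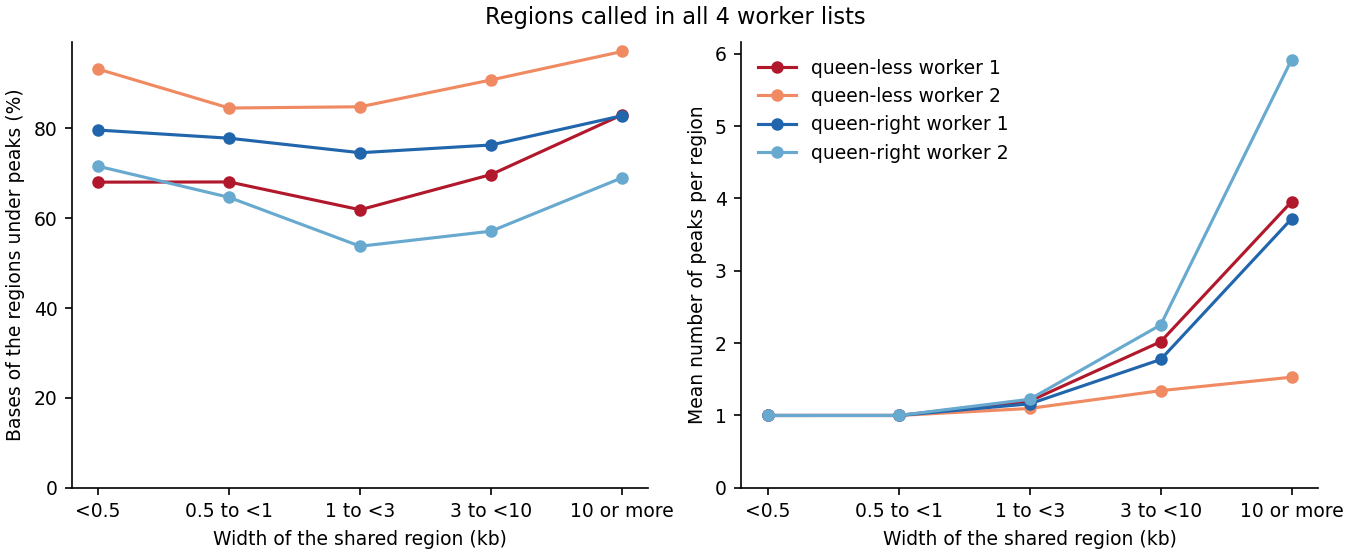
Bases of the shared regions under peaks (%, left) and mean number of peaks per region (right) by class of region width (kb, horizontal axis), with 1 line per worker list and no error bars. At 10 kb or more the queen-less lists cover 83.0% and 97.1% and the queen-right lists 82.8% and 69.0%.

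Taken region by region, 497 of the 1131 wide regions (43.9%) had a larger share covered in both queen-less lists, and 7 (0.619%) had a larger share in both queen-right lists. The limit set by merged width holds for these counts too. The lists numbered 1 had the larger share in 6 (0.531%) and those numbered 2 in 18 (1.59%), while queen-less 2 with queen-right 1 had it in 601 (53.1%) and queen-less 1 with queen-right 2 in 1 (0.0884%). A gap of 20 points or more between the pairs was found in 134 regions for queen-less workers, 0 for queen-right workers, 57 for queen-less 2 with queen-right 1 and 0 for each of the other pairs. At equal covered bases the labelled counts were 402 and 16. Without queen-less worker 2 they were 319 and 153, under the unlike conditions given above. The queen-less count was the higher in both, but equal covered bases is a weak check of wide regions. In queen-less worker 2 the median score was 54 for peaks under 500 bases and 123 for peaks of 10 kb or more. Its cut at a score of 91 thus spared broad peaks more than narrow ones. The pair of queen-less 2 with queen-right 1 had 489 at equal covered bases, and queen-less 1 with queen-right 2 had 3.

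The widest gap, chosen after the values were seen, was at NW_003378115.1:766899-778876, where peaks covered 99.7% and 79.6% in queen-less workers, against 4.63% and 5.74% in queen-right workers, with 90.6% and 99.3% in queens. At NW_003378123.1:1519572-1532245 the shares were 97.8% and 100% in queen-less workers, against 2.41% and 28.6% in queen-right workers, with 99.8% in each queen. At NW_003377892.1:410085-421322 they were 93.3% and 100% in queen-less workers, against 19.1% and 25.8% in queen-right workers, with 87.0% and 80.9% in queens. In these 3 domains of 11.2 to 12.7 kb the lower queen-less share was 79.6% and the higher queen-right share 28.6%. The widest gap the other way, at NW_003378112.1:342503-353213, was 12.8 points, with 61.9% and 73.8% covered in queen-less workers, against 99.0% and 86.6% in queen-right workers.

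The mark was also unevenly placed among scaffolds. On 304 scaffolds of at least 100 kb (95.0% of the span of all 1834), the share covered was divided by the same share over all 304 scaffolds in that list, so that lists of unequal extent could be set side by side. Both queen-less lists lay above both queen-right lists on 70 scaffolds (23.0%), and below them on 92 (30.3%). The crossed pairs gave 19 (6.25%) for the lists numbered 1, 30 (9.87%) for those numbered 2, 40 (13.2%) for queen-less 2 with queen-right 1 and 49 (16.1%) for queen-less 1 with queen-right 2. The labelled comparison thus separated 162 scaffolds, against 49 and 89 in the crossed ones. Of the separated scaffolds, the means were at least 0.25 apart on 8 with queen-less and 15 with queen-right workers above, against 0, 0, 3 and 7 for the crossed pairs in the order given. At equal covered bases the labelled comparison separated 132 scaffolds (34 with queen-less and 98 with queen-right workers above) and the crossed comparison of unlike-numbered lists 140.

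Without the scaling the counts followed the covered bases of the lists. Queen-less workers lay above on 90 scaffolds (29.6%) and queen-right workers on 9 (2.96%). The lists numbered 1 lay above on 12 (3.95%), those numbered 2 on 2 (0.658%), queen-less 2 with queen-right 1 on 182 (59.9%) and queen-less 1 with queen-right 2 on 5 (1.64%). The scaled counts thus leaned to queen-right workers and the unscaled counts to queen-less workers.

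The scaffold with the largest scaled difference was NW_003377956.1, with a span of 310 kb up to its last peak. Peaks covered 54.0% and 67.4% of it in queen-less workers, against 40.7% and 23.4% in queen-right workers, with 49.4% and 40.4% in queens. On NW_003378115.1, of 869 kb, the shares were 25.1% and 28.4% in queen-less workers, against 9.55% and 11.7% in queen-right workers, with 25.4% and 21.9% in queens. Both groups of values lay apart by more than the gap within each group on NW_003378115.1. On NW_003377959.1, of 713 kb, the shares were 22.3% and 28.9% in queen-less workers, against 11.1% and 13.1% in queen-right workers, with 24.1% and 21.7% in queens. The widest gap among the wide shared regions also lay on NW_003378115.1.

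In the other direction the largest scaled difference was on NW_003377964.1, of 118 kb, where peaks covered 18.4% and 32.7% in queen-less workers, against 53.0% and 21.1% in queen-right workers. Its unscaled values overlapped between the groups, and queen-right worker 1 stood alone above the other lists. On NW_003378156.1, of 377 kb, the scaled values were 1.16 and 1.23 in queen-less workers, against 1.62 and 1.60 in queen-right workers. In queens they were 1.16 and 1.33. Its unscaled shares overlapped too, at 32.5% and 45.0% in queen-less workers, against 49.1% and 36.6% in queen-right workers. Bases under both queen-less lists alone outnumbered those under both queen-right lists alone on 264 of 299 scaffolds, and the reverse held on 35. The 10 scaffolds with the most such queen-less bases held 27.7% of them on 14.7% of the span. They were picked by these same bases, so a share above that of their span follows in part from the choice. Neither this share nor the split of 264 and 35 was read for the crossed pairs.

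**Figure D5:**
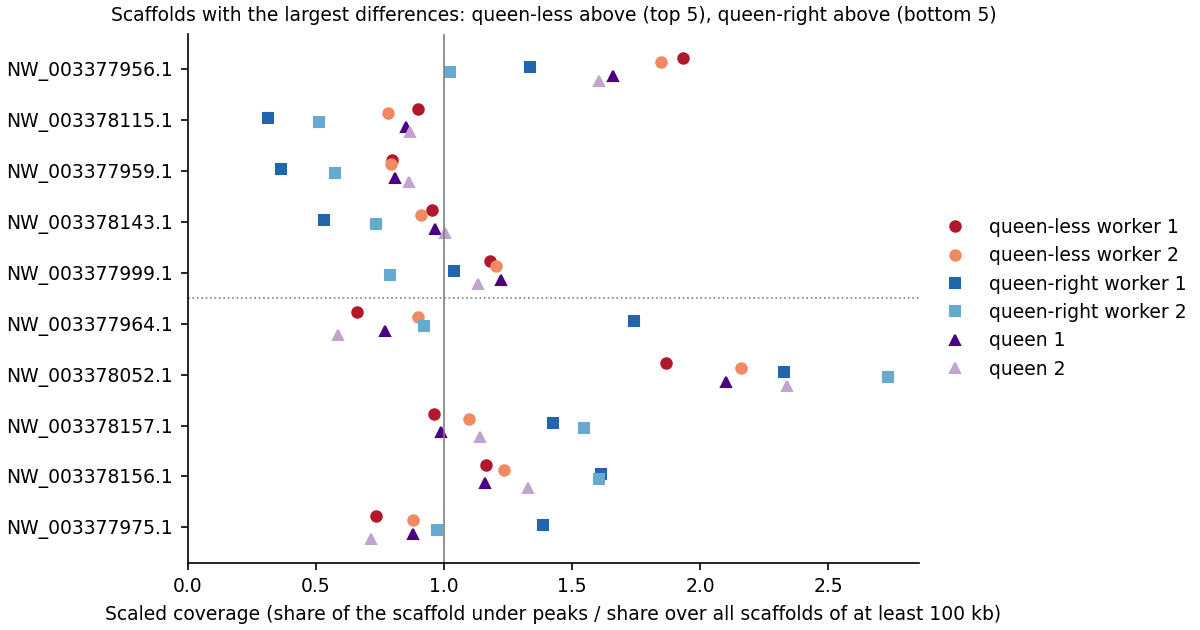
Scaled coverage (share of a scaffold under peaks divided by the share over all scaffolds of at least 100 kb, horizontal axis) of the 4 worker lists and the 2 queen lists on the 5 scaffolds with the largest difference in each direction, queen-less above in the top 5 and queen-right above in the bottom 5. On NW_003378115.1 the queen-less workers stand at 0.90 and 0.78 and the queen-right workers at 0.31 and 0.51, with the queens at 0.85 and 0.87.

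The queen lists took no part in choosing the regions, so they give a separate reading of the direction. Both queens called 1448 of the 2932 regions of queen-less workers alone (49.4%) and neither queen called 685 (23.4%). Both queens called 28 of the 568 regions of queen-right workers alone (4.93%) and neither queen called 461 (81.2%). For the crossed pairs the share in both queens was 6.80% for the lists numbered 1, 27.2% for those numbered 2, 21.1% for queen-less 2 with queen-right 1 and 30.1% for queen-less 1 with queen-right 2, and for regions of all 4 worker lists it was 94.1%. The labelled difference thus exceeded that of either crossed comparison with the full lists. It depended on the lists used: at equal covered bases the shares were 86.3% for queen-less and 70.1% for queen-right workers. Without queen-less worker 2 they were 32.0% and 47.0%, in the opposite order, but with unlike conditions for the groups. The queen-less regions then rest on queen-less worker 1 alone, and the queen-right regions can hold peaks of queen-less worker 2.

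Bases and domains gave the same order with the full lists. Queens 1 and 2 had peaks over 64.6% and 47.1% of the bases of queen-less workers alone, against 20.2% and 10.4% of the bases of queen-right workers alone. For the bases of queen-less 2 with queen-right 1 the shares were 44.4% and 28.7%, and for those of queen-less 1 with queen-right 2 they were 36.2% and 25.4%. Filled gaps of queen-less workers were covered at 66.2% and 48.4% by queens 1 and 2, new regions at 65.9% and 48.7% and extensions at 61.8% and 44.8%, so the places hardly differed. Of the 497 wide shared regions with a larger share in queen-less workers, both queens lay above both queen-right lists in 273 (54.9%), and for queen-less 2 with queen-right 1 both queens lay above the other pair in 173 of 601 (28.8%). On scaffolds, the mean scaled value of the queens was nearer to the queen-less than to the queen-right mean on 44 of the 70 (62.9%) where queen-less workers lay above, and nearer to the queen-right mean on 8 of the 92 (8.70%) where queen-right workers lay above. The queens were nearer to the pair that lay above on 25 of 49 scaffolds (51.0%) for queen-less 1 with queen-right 2, 8 of 40 (20.0%) for queen-less 2 with queen-right 1, 6 of 19 (31.6%) for the lists numbered 1 and 10 of 30 (33.3%) for those numbered 2. Queens have active ovaries, and the queen and worker lists differ in more than that, so what the likeness rests on was not tested.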

How the data were processed

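ChIP-seq for H3K27me3 was analysed in ovaries of 2 queen-less and 2 queen-right worker samples, with the lists of queens 1 and 2 as a further readout. The deposited files are broad peak lists with a score per peak. Per the submitters' processing notes, the tools were Bowtie 1.0, SAMtools 1.5, MACS2 and bedtools, and the peak names give a broad threshold of 0.1 and an extension of 147. The immunoprecipitations were done in triplicate and pooled, in biological duplicate. The genome build and the use of the 3 inputs in calling these peaks are not given in the sources used here. None of the scaffolds of the lists is named in the gene table at hand (0 matches), so genes and sequences were not analysed here.

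Lists were read with Python 3.11.15 and NumPy 2.4.6 and drawn with matplotlib 3.10.9. Scores, which the authors' peak caller set, were compared as levels only, with 10 the lowest in every list. Peaks overlapping by at least 1 base, or touching, were merged over the 4 lists. Scaffold spans are the farthest peak end over the 6 ChIP lists. Coordinates count from 1. Scripts were tested on simulated data. Single values were tested by exact two-sided permutation of 2 lists against 2, and counts were set beside the 2 crossed comparisons, since peaks are not replicates. Named positions are, for each direction, among the 3 widest new regions, the 3 longest filled stretches and extensions, and the 5 scaffolds of at least 100 kb with the largest scaled difference. Exceptions are named as chosen later. Alternatives were lists of equal covered bases, lists of equal length, a minimum score of 20, joining of peaks closer than 1 kb, a 50% cover rule, a stricter rule for filling, unscaled scaffolds, a span of 500 kb, a replicate block and leaving out each list. The members, rules and tests were chosen with earlier results of these data known.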

Additional observations from a re-analysis of the deposited data

How the results depend on the processing

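Of 168 alternative values of 19 results, 98 stayed within 1.5 times the value given (for differences, within the pooled SD) and 70 moved further. The pooled SD is a wide limit, and all alternatives of the differences fell within it, so this does not mean that they were stable. The difference in covered bases was 2.35 Mb without queen-less worker 2, 3.78 Mb without queen-right worker 2, 21.2 Mb without queen-less worker 1 and 19.7 Mb without queen-right worker 1. At equal covered bases it was -0.00201 Mb, where the rule makes the lists equal. At equal covered bases, regions called by one group alone numbered 234 for queen-less and 4140 for queen-right workers, of which both queens called 86.3% and 70.1%. New regions came to 0.0899 Mb for queen-less and 2.20 Mb for queen-right workers, and extensions to 1.11 and 1.18 Mb. Stretches of at least 1 kb numbered 660 and 767, queen-less workers lay above on 34 scaffolds, and queen-right workers had the larger share in 16 wide shared regions. With a minimum score of 20, queen-right workers alone called 267 regions, of which 10.1% were in both queens, and their new regions came to 0.0718 Mb. With peaks closer than 1 kb joined, queen-less workers alone called 1809 regions, and filling in queen-right workers came to 0.532 Mb. At that setting stretches of at least 1 kb numbered 2988 for queen-less and 363 for queen-right workers, beside 2797 for queen-less 2 with queen-right 1. The wide shared regions with a larger share then numbered 769 for queen-less and 43 for queen-right workers, beside 1201 for queen-less 2 with queen-right 1. When peaks had to cover 50% of a region, the counts of regions were 4562 for queen-less and 970 for queen-right workers. Filling touched on both sides came to 2.40 Mb in queen-less workers, below their extension of 3.49 Mb, and to 0.204 Mb in queen-right workers. Unscaled, queen-right workers lay above on 9 scaffolds. With a span of at least 500 kb queen-less workers lay above on 31 and queen-right workers on 48, out of fewer scaffolds than under the main rule. Regions were merged anew for each change of the lists, so those counts of regions have other totals than the main counts. The causes were not tested.

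Leaving out each list in turn makes a difference rest on 3 lists, which loosens its condition in unlike ways for the groups. The regions then numbered 4434 to 7715 for queen-less and 672 to 5363 for queen-right workers alone. Of these, 27.8% to 59.0% and 2.13% to 47.0% were in both queens. Queen-less workers had 2.05 to 3.13 Mb in new regions, 3.15 to 7.38 Mb of filling and 3.38 to 6.88 Mb of extension. Queen-right workers had 0.205 to 1.97 Mb, 0.385 to 2.17 Mb and 0.658 to 3.26 Mb of these. The wide shared regions numbered 319 to 913 for queen-less and 2 to 153 for queen-right workers, the stretches of at least 1 kb 1716 to 3064 and 62 to 813, and scaffolds with queen-less workers above 92 to 114.

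The difference in covered bases was 11.8 Mb with a replicate block, from pair differences of -5.62 and 29.1 Mb (exact sign permutation, p = 1, where 0.5 is the smallest possible), and the block gave 83 scaffolds for queen-less and 108 for queen-right workers. Same-numbered lists are not known to be pairs, and over 221071 bins of 1 kb their deviations correlated at -0.152. The crossed pairing gave 99 and 124 scaffolds. The crossed pairing, the queen shares under each alternative, the wide shared regions, the stretches of at least 1 kb and the totals of the crossed comparisons were added after the data had been seen. At a minimum score of 20 the crossed comparison of unlike-numbered lists had more differing bases, 8.29 Mb, than the labelled one, 7.21 Mb.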
